A study of Mus musculus with 11 samples.

Results

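Aminoacyl-tRNA synthetases join each amino acid to its tRNA. Their genes were taken by symbol: the letter of an amino acid followed by "ars", bare or with one of a few endings, and with a probe set that carries a single gene symbol. The rule found 34 of the 18193 genes represented on the array. Of these, 19 encode enzymes that work in the cytosol and 14, with the ending 2, encode enzymes that work in mitochondria. Tarsl2, a gene related to the threonine enzyme Tars, was kept apart. Dars, the cytosolic gene for aspartate, was not analysed here.

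RNA was measured on 11 Affymetrix arrays of CD8+ T cells from Pmel-1 transgenic mice, whose T cells carry a receptor for a peptide of the melanocyte protein gp100. Per the labels, cells enriched as naive (CD44-) or central memory (CD44+) were stimulated on plate-bound CD3/CD28 antibodies and restimulated a week later with allogeneic feeders pulsed with the hgp100 peptide, and all grew in IL-2 (10 cetus units) for 2 weeks. Each group then received a last CD3/CD28 stimulation of 4 h or none. Memory-derived unstimulated, memory-derived stimulated and naive-derived stimulated cells had 3 arrays each and naive-derived unstimulated cells had 2. The arrays carry a biological replicate number, read here as the number of the experiment. The groups are therefore effector cultures that descend from naive or memory cells, not freshly isolated naive or memory cells.

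In mammals the cytosol and the mitochondria use separate sets of synthetases, all encoded in the nucleus, except that Gars and Kars each give an enzyme for both places. Several cytosolic enzymes sit together with scaffold proteins in the multisynthetase complex. The transcription factor ATF4, whose translation rises when amino acids run short or proteins misfold, is known to bind many cytosolic synthetase genes together with genes for amino acid synthesis and import. Activated T cells are known for a steep rise in protein synthesis and amino acid uptake.

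All 34 genes were above the 40th percentile of the array on at least 2 arrays and entered the tests, as did 14795 of all 18193 genes. Values are on a log2 scale set from log10 values; that base was inferred from the hybridization controls, so every fold below rests on it. The authors had quantile normalized the arrays, which leaves no information on total RNA, and precision is limited by how many arrays each group has. The summed level of 6 CD8 T cell markers was 54.0 to 55.0 in memory-derived unstimulated, 50.9 to 51.3 in memory-derived stimulated, 54.6 to 55.5 in naive-derived unstimulated and 52.5 to 53.5 in naive-derived stimulated cells, with all 6 above the filter on every array. Cd4 was below the filter on every array, and of 3 B cell markers at most 1 was above it. The 1 B cell marker that entered the tests was called higher (limma, adjusted p below 0.05) in 2 comparisons. It rose by 0.59 with stimulation in memory-derived cells, where 14.3% of all genes rose. Between unstimulated cells it was higher by 0.82 in naive-derived cells, where 10.9% of all genes were higher. The summed level of 6 macrophage and dendritic cell markers was 19.3 to 20.5 and 19.3 to 19.3 in the memory-derived groups. It was 16.0 to 16.2 and 14.2 to 16.9 in the naive-derived groups, and 5 or 6 of the 6 were above the filter on every array. Between unstimulated cells 3 of these 6 were lower and 0 higher in naive-derived cells (limma, adjusted p below 0.05), where 14.9% of all genes were lower. Between stimulated cells 3 were again lower and 0 higher, where 2.01% of all genes were lower. The log2 differences ran from -1.77 to 0.40 in unstimulated cells, with 3 above 0. In stimulated cells they ran from -1.30 to 0.17, with 1 above 0. The log10 difference between the 3' and 5' actin probe sets, a sign of RNA integrity, was 0.263 to 0.351 in memory-derived unstimulated, 0.431 to 0.520 in memory-derived stimulated, 0.462 to 0.478 in naive-derived unstimulated and 0.581 to 0.782 in naive-derived stimulated cells. In these bulk samples, fewer cells of a type and less RNA per cell cannot be told apart.

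Most cytosolic synthetase genes rose after the final stimulation in memory-derived cells. Of the 19, 15 were higher and 1, Qars, lower at an adjusted p below 0.05, with a median log2 change of 0.90 (range -0.47 to 1.66). Of the 14 mitochondrial genes, 1, Yars2, rose and 0 fell, with a median of 0.07. Over all 14795 genes, 14.3% rose and 17.3% fell, 31.6% in either direction, with a median change of 0.00. P values are from limma across all genes, adjusted by the Benjamini-Hochberg method. For 15 cytosolic genes every stimulated array was above every unstimulated array, where 21.9% of all genes showed that. Of the mitochondrial genes, 4 lay wholly above and 1 wholly below, where 24.7% of all genes lay below. Within experiments 1, 2 and 3 the median cytosolic change was 0.85, 0.67 and 1.04. The part of actin integrity and of the CD8 T cell markers, which both moved with stimulation, was not tested.

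Cars, the cysteine enzyme, changed most. Its log2 level was 4.45, 4.28 and 4.22 on the unstimulated arrays and 5.85, 6.02 and 6.07 on the stimulated arrays. The groups were more than a full log2 unit apart, and the rise was 1.66 ± 0.119 (SE, adjusted p = 2.69e-05), or 3.16-fold. The other Cars probe set was much dimmer and went from a mean of 1.62 to 2.32. Nars, for asparagine, read 7.43, 7.43 and 6.99 before and 8.83, 8.88 and 8.85 after stimulation. The stimulated arrays lay within a narrow band and far above the others, a rise of 1.57 ± 0.140 (adjusted p = 5.86e-05). Tars, for threonine, read 6.05, 6.26 and 5.35 before and 7.35, 7.45 and 7.47 after. Unstimulated array 3 was the lowest for this gene, and the groups did not overlap (1.54 ± 0.205, adjusted p = 0.000464).

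Iars, for isoleucine, read 6.58, 6.79 and 6.42 before and 7.81, 7.85 and 7.93 after stimulation, a rise of 1.27 ± 0.147 (adjusted p = 0.000233). All stimulated arrays were above all unstimulated arrays. Farsa, the alpha subunit of the phenylalanine enzyme, read 4.84, 5.00 and 4.04 before and 5.75, 5.94 and 5.75 after (1.19 ± 0.218, adjusted p = 0.00232). Again array 3 was the lowest of the unstimulated arrays. The other 3 Farsa probe sets changed by 0.32, 0.03 and -0.16, and with the mean of all its probe sets the change was 0.34 and no longer passed (adjusted p = 0.191). Aars, for alanine, read 5.56, 5.81 and 6.23 before and 6.90, 7.03 and 7.08 after, a rise of 1.14 ± 0.165 (adjusted p = 0.000702). Here array 3 was the highest unstimulated array and still lay below every stimulated one.

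Wars, for tryptophan, rose from 4.91, 5.11 and 4.96 to 5.86, 6.02 and 5.90 (0.94 ± 0.112, adjusted p = 0.000264). Its groups were tight and did not overlap. The other 8 cytosolic genes that rose were Gars for glycine (1.02), Eprs for glutamate and proline (0.92), Farsb, the beta subunit for phenylalanine (0.90), Yars for tyrosine (0.85), Lars for leucine (0.75), Rars for arginine (0.70), Sars for serine (0.65) and Kars for lysine (0.40). Kars was the smallest of these, with an adjusted p of 0.0177 that rose to 0.218 when the arrays were scaled on the hybridization controls.

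**Figure D1:**
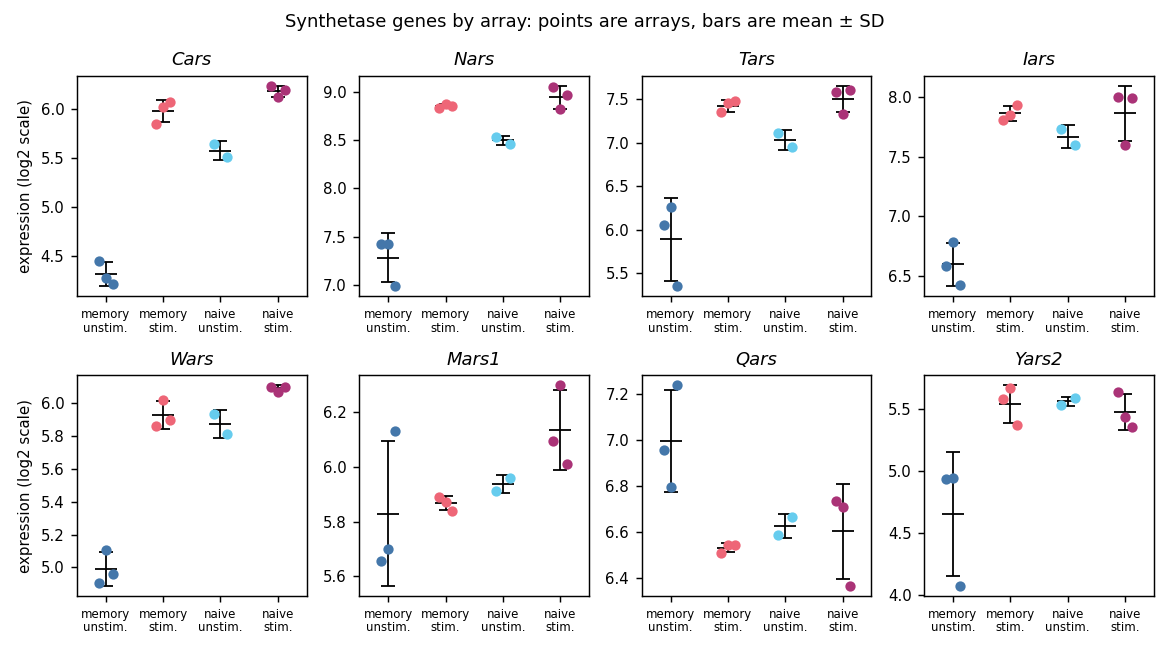
Expression on a log2 scale (y axis) of 8 synthetase genes in the 4 groups of arrays (x axis); points are arrays and bars are the mean ± SD of 2 or 3 arrays. Cars, Nars, Tars, Iars and Wars are lowest on all 3 memory-derived unstimulated arrays, Qars is highest there, and the Mars1 values of the 2 memory-derived groups overlap.

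The 4 remaining cytosolic genes stood apart from that rise. Qars, for glutamine, read 6.95, 6.80 and 7.24 before and 6.51, 6.54 and 6.54 after stimulation. Every stimulated array was below every unstimulated one, and the change was -0.47 ± 0.146 (adjusted p = 0.0325). The other 3 Qars probe sets changed by -0.72, -0.07 and -0.05, the first of them about as bright as the one used and the others dimmer. With experiment as a block the adjusted p was 0.0564, and the call was lost in 8 of 21 alternatives. Mars1, for methionine, read 5.65, 5.70 and 6.13 before and 5.89, 5.87 and 5.84 after. The stimulated arrays fell inside the range of the unstimulated ones (0.04 ± 0.145, adjusted p = 0.882).

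Vars, for valine, read 5.25, 5.41 and 5.89 before and 5.28, 5.26 and 5.45 after, and its groups overlapped (-0.19 ± 0.178, adjusted p = 0.465). Hars, for histidine, read 7.16, 7.31 and 6.89 before and 7.53, 7.30 and 7.42 after. The lowest stimulated array was just below the highest unstimulated one (0.30 ± 0.139, adjusted p = 0.132). For these genes the test did not pass, which does not show that their levels were equal.

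Of the mitochondrial genes, Yars2, for tyrosine, read 4.94, 4.95 and 4.08 before and 5.58, 5.67 and 5.37 after stimulation. The groups did not overlap, although array 3 lay far below the other unstimulated arrays (0.88 ± 0.215, adjusted p = 0.00964). Nars2, for asparagine, read 4.07, 3.81 and 3.20 before and 4.18, 4.15 and 4.07 after (0.44 ± 0.211, adjusted p = 0.138). Its lowest stimulated array was barely above the highest unstimulated one. Fars2, for phenylalanine, read 4.21, 3.75 and 4.08 before and 3.50, 3.45 and 3.78 after, with 1 array of each group in the other's range (-0.44 ± 0.207, adjusted p = 0.136). Mars2, for methionine, read 2.50, 2.43 and 2.00 before and 2.65, 2.85 and 2.67 after (0.41 ± 0.230, adjusted p = 0.207). The other 10 changed by -0.31 (Iars2, adjusted p = 0.0672) to 0.25 (Aars2), and none of them passed.

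The rise was seen both inside and outside the multisynthetase complex. Over all genes, 14.3% rose and 17.3% fell. Of the 7 complex enzymes measured, 5 rose and 1 fell (median 0.70); these were Iars, Eprs, Lars, Rars and Kars, with Qars falling and Mars1 at 0.04. Of the 12 cytosolic genes outside it, 10 rose (median 0.98). Synthetases also fall into structural classes by the fold of their catalytic domain. Of the 9 class I genes 6 rose and 1 fell (median 0.75), and of the 9 class II genes measured 8 rose (median 1.02). Among 12 cytosolic genes commonly listed as ATF4 targets 11 rose (median 0.98), all but Mars1. This count was 11 under every alternative run, each on the same arrays or part of them. Among the other 7, 4 rose and 1 fell (median 0.40). The subsets were chosen with earlier results of these data known, and no test compared them with each other.

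Promoters were examined for the motifs of ATF4 and of MYC, since members moved together. RefSeq windows of build GRCm38.p6, from 250 bases before to 50 after a transcript start, were found for 12 cytosolic genes, 13 mitochondrial genes and Tarsl2. No window was found for Cars, Nars, Wars, Lars, Rars, Hars, Vars or Hars2. Cars and Nars, which rose most in stimulated memory-derived cells, were thus not searched. The core of the element bound by ATF4 with C/EBP proteins, spelled TGATGNAA and searched on both strands, was in a window of 5 of the 12 cytosolic genes (41.7%), 0 of the 13 mitochondrial genes and 4.51% of all 27025 genes in the table. The E-box CACGTG, which MYC with MAX can bind and which reads the same on both strands, was in a window of 4 of the 12 cytosolic genes (33.3%: Aars, Farsb, Iars, Tars), 0 of the 13 mitochondrial genes and 8.09% of all genes. No match of one motif overlapped a match of the other. The 5 cytosolic promoters with the ATF4 core are shown, followed by that of Qars, which holds neither motif, so that they can be set beside each other; each runs 5′ to 3′ on the gene's strand, from 250 bases before to 30 after the start, with the ATF4 core or its reverse complement and the E-box in capitals.
Aars, chr8:111033592-111033871, plus strand: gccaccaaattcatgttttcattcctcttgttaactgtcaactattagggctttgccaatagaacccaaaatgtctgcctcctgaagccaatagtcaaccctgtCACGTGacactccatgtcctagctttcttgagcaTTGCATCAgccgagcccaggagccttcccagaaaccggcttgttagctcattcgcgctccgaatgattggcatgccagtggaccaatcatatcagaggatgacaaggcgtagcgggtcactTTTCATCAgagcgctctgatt
Gars, chr6:55037751-55038030, plus strand: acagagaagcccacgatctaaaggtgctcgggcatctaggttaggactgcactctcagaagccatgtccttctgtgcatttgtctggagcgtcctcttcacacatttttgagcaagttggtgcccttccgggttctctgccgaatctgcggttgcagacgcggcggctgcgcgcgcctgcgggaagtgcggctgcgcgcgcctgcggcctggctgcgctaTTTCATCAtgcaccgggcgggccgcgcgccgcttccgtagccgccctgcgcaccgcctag
Iars, chr13:49681880-49682159, plus strand: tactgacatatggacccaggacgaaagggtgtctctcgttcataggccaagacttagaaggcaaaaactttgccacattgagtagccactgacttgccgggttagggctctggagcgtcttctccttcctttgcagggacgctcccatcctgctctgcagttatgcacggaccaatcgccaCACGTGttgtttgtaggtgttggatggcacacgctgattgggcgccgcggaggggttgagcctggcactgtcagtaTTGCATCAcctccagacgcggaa
Tars, chr15:11399629-11399908, minus strand: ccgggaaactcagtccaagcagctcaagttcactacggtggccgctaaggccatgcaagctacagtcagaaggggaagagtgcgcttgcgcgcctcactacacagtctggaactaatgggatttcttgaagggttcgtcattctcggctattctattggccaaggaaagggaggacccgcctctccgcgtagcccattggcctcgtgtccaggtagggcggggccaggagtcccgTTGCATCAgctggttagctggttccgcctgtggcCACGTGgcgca
Yars, chr4:129189653-129189932, plus strand: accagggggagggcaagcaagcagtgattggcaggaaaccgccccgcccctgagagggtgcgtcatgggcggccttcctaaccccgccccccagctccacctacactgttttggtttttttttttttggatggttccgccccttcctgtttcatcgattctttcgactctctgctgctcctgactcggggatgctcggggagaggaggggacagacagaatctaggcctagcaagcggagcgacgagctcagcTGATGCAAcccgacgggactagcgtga
Qars, chr9:108507755-108508034, plus strand: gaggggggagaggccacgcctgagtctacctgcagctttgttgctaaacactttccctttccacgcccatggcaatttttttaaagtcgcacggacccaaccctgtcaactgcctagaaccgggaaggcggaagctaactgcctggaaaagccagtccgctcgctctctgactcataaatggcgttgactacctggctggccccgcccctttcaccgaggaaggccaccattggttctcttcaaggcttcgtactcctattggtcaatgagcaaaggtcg

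In these windows the ATF4 core of Gars, Tars, Iars and Yars began at positions -30, -15, 8 and 4 from the start, and Aars held it at -112 and 10. In Yars it lay on the gene's strand and in the other 4 genes on the opposite strand. The E-box began at -146 in Aars, -69 in Iars, 20 in Tars and -39 in Farsb. The 5 genes with the ATF4 core all rose in stimulated memory-derived cells (median 1.14, range 0.85 to 1.54). Of the 7 cytosolic genes whose window lacks it, 5 rose and 1, Qars, fell (median 0.65, range -0.47 to 1.19). A match is a description of these letters and shows no binding, and the absence of a match says only that the letters are not in this window.

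In naive-derived cells none of the 34 genes passed the test for the final stimulation, and of all 14795 genes only 0.0135% did. Without adjustment, 1252 genes had p below 0.05, of which 4.04% of all genes were higher and 4.42% lower. Of the cytosolic genes 6 were higher at that unadjusted level and 0 lower: Cars, Aars, Gars, Sars, Nars and Lars. The median cytosolic difference was 0.20, against 0.01 for all genes, and 16 of 19 were above 0, as were 51.6% of all genes. For 12 of them every stimulated array was above both unstimulated arrays, where 13.6% of all genes showed that. Within experiments 1 and 2, the pair that has both groups, the median was 0.19 and 0.15.

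Cars read 5.64 and 5.51 on the unstimulated arrays and 6.23, 6.12 and 6.19 after stimulation. The groups did not overlap, and the difference was 0.60 ± 0.133 (adjusted p = 0.256). Gars read 7.65 and 7.50 before and 8.14, 8.05 and 8.16 after, again without overlap (0.54 ± 0.125, adjusted p = 0.256). Nars read 8.53 and 8.46 before and 9.05, 8.82 and 8.96 after (0.45 ± 0.157, adjusted p = 0.499). Iars read 7.74 and 7.60 before and 8.00, 7.59 and 7.99 after, so that 1 stimulated array was level with the lower unstimulated one (0.20 ± 0.164, adjusted p = 0.818). Eprs differed by -0.00 ± 0.171 (adjusted p = 1) and Qars by -0.02 ± 0.164.

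Among mitochondrial genes the median difference in naive-derived cells was -0.05. At the unadjusted level 0 were higher and 1 was lower, Mars2, which read 2.99 and 2.87 before and 2.75, 1.77 and 2.50 after. All stimulated arrays were below the unstimulated ones, with array 2 far down (-0.59 ± 0.257, adjusted p = 0.586). Aars2 differed by -0.58 ± 0.273 (adjusted p = 0.601).

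**Figure D2:**
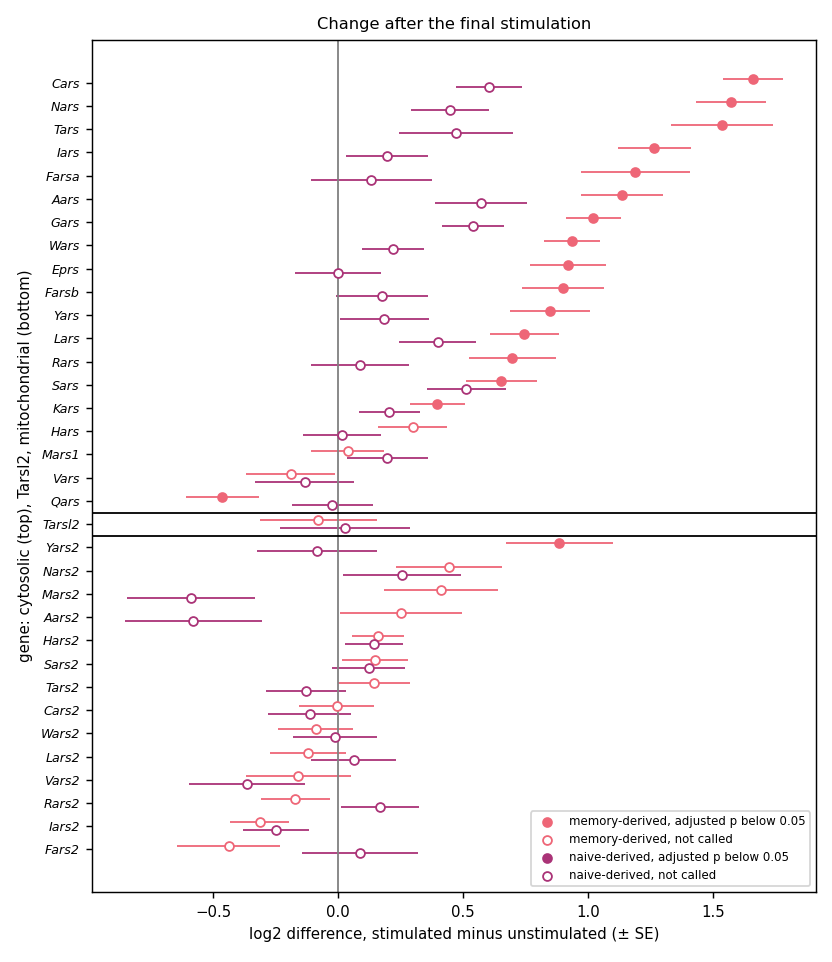
Log2 difference, stimulated minus unstimulated (x axis), for each of the 34 genes (y axis) in memory-derived and naive-derived cells; points are fitted differences, bars are ± SE and filled points passed an adjusted p below 0.05. In memory-derived cells 16 genes are filled on the right and Qars on the left; in naive-derived cells no point is filled, and Cars is at 0.60.

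Without the final stimulation, naive-derived cells had more RNA of most cytosolic synthetases than memory-derived cells. Of the 19, 14 were higher and 0 lower, with a median difference of 0.67. Of all genes, 10.9% were higher and 14.9% lower, 25.8% in either direction, with a median of -0.01. This comparison uses the same memory-derived unstimulated arrays as the stimulation of memory-derived cells, so the pair of results is not independent. For 15 cytosolic genes both naive-derived arrays were above all 3 memory-derived arrays, where 24.4% of all genes showed that. The count of 14 was 7 when either naive-derived unstimulated array was left out, 7 with scaling on the hybridization controls and 8 in a fit of the compared groups alone. Within experiments 1 and 2 the median was 0.75 and 0.43. Actin integrity and the summed level of the macrophage and dendritic cell markers also differed between these groups, by the values given above. Their part was not tested.

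The genes that differed most were Cars, Nars, Tars and Iars. For Cars the naive-derived arrays read 5.64 and 5.51 against 4.45, 4.28 and 4.22 in memory-derived cells, a difference of 1.26 ± 0.133 (adjusted p = 0.000233). The lower naive-derived array exceeded the highest memory-derived one by about a log2 unit. With the other, much dimmer Cars probe set the means were 1.72 in naive-derived and 1.62 in memory-derived cells. Nars differed by 1.22 ± 0.157 (adjusted p = 0.000563), Tars by 1.14 ± 0.229 (adjusted p = 0.00497) and Iars by 1.07 ± 0.164 (adjusted p = 0.00131). Wars read 5.93 and 5.81 against 4.91, 5.11 and 4.96 (0.88 ± 0.125, adjusted p = 0.000893). Farsa (1.04), Eprs (1.02), Farsb (0.78), Aars (0.73), Yars (0.67), Rars (0.67), Gars (0.60), Lars (0.55) and Kars (0.36) were also higher. Kars was at the edge of the threshold (adjusted p = 0.0499), and with experiment as a block both Kars (0.0751) and Rars (0.0590) no longer passed.

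Sars, Hars, Mars1 and Vars differed by 0.29, 0.33, 0.11 and -0.01 and did not pass. Qars was again on the other side: both naive-derived arrays, 6.59 and 6.66, were below the memory-derived arrays, 6.95, 6.80 and 7.24 (-0.37 ± 0.164, adjusted p = 0.123), as in 29% of all genes. Among the 14 mitochondrial genes 2 were higher and 1 lower, shares near the 10.9% and 14.9% of all genes, so the values that follow describe single genes. Yars2 read 5.54 and 5.59 against 4.94, 4.95 and 4.08 (0.91 ± 0.240, adjusted p = 0.0182). Tars2, the mitochondrial enzyme for threonine, read 4.49 and 4.74 against 4.05, 4.29 and 3.91 (0.53 ± 0.162, adjusted p = 0.0344). Fars2 was lower at 3.36 and 3.25 against 4.21, 3.75 and 4.08 (-0.71 ± 0.232, adjusted p = 0.0433). None of the 3 overlapped between groups, yet 0 mitochondrial genes passed without either naive-derived unstimulated array or with scaling on the hybridization controls, and 6 passed without naive-derived stimulated array 2.

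Tarsl2 was lower in naive-derived cells, at 1.70 and 1.76 against 2.21, 2.53 and 2.82 (-0.79 ± 0.261, adjusted p = 0.0461). Its values lay close to the filter level of 1.54, and with experiment as a block its adjusted p was 0.0847. After stimulation it read 1.24, 1.81 and 2.22 in naive-derived and 2.63, 2.38 and 2.31 in memory-derived cells, again without overlap (-0.68 ± 0.234, adjusted p = 0.163).

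**Figure D3:**
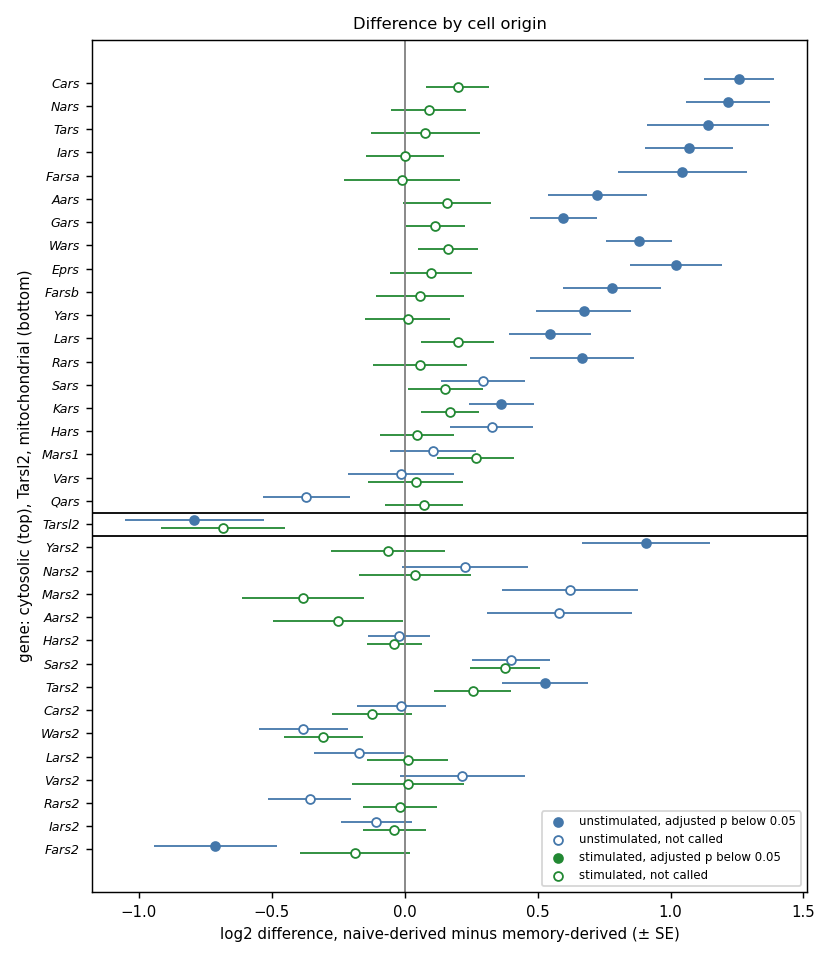
Log2 difference, naive-derived minus memory-derived (x axis), for each of the 34 genes (y axis) in unstimulated and stimulated cells; points are fitted differences, bars are ± SE and filled points passed an adjusted p below 0.05. In unstimulated cells 16 genes are filled on the right, and Fars2 and Tarsl2 on the left; in stimulated cells none is filled and the cytosolic genes lie between -0.01 and 0.27.

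After the final stimulation none of the 34 genes differed between origins at an adjusted p below 0.05, where 3.7% of all genes did. The cytosolic differences ran from -0.01 for Farsa to 0.27 for Mars1, with a median of 0.09, and 0 of 19 had an unadjusted p below 0.05. Of all genes, 16.3% had one. Cars read 6.23, 6.12 and 6.19 in naive-derived and 5.85, 6.02 and 6.07 in memory-derived stimulated cells. The naive-derived arrays were all slightly above (0.20 ± 0.119, adjusted p = 0.455), as they were for 4 cytosolic genes, Cars, Mars1, Kars and Wars, where 11.4% of all genes showed that. For Nars, the arrays read 9.05, 8.82 and 8.96 against 8.83, 8.88 and 8.85, and the groups overlapped (0.09 ± 0.140). In experiments 1, 2 and 3, 16, 9 and 17 of the 19 cytosolic genes were higher in naive-derived cells, so that the direction did not hold in experiment 2. Among mitochondrial genes, Sars2 for serine was the one with an unadjusted p below 0.05, at 3.54, 3.89 and 3.53 against 3.31, 3.34 and 3.19 (0.38 ± 0.132, adjusted p = 0.175).

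Naive-derived cells that had received no final stimulation were also set beside memory-derived cells that had, although origin and stimulation both differ there. None of the 34 genes passed, where 1.85% of all genes did. The cytosolic median was -0.15, and 5 genes had an unadjusted p below 0.05, all lower in the unstimulated naive-derived cells: Gars (-0.43 ± 0.125, adjusted p = 0.149), Aars, Cars, Sars and Nars. Of all genes, 6.7% were lower at that level. In 10 cytosolic genes the naive-derived unstimulated arrays were below all memory-derived stimulated arrays, as in 19.9% of all genes, and in 2, Qars and Mars1, above them, as in 15.5%.

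Relative to the mean of the memory-derived unstimulated arrays, the median cytosolic gene stood at -0.09 to 0.15 on those arrays themselves. It stood at 0.66 to 0.68 on the naive-derived unstimulated, 0.87 to 0.91 on the memory-derived stimulated and 0.85 to 1.02 on the naive-derived stimulated arrays. The 3 higher groups thus lay apart from the memory-derived unstimulated one, with the stimulated groups overlapping each other. For the mitochondrial genes the same median was between -0.00 and 0.16 on all 11 arrays.

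**Figure D4:**
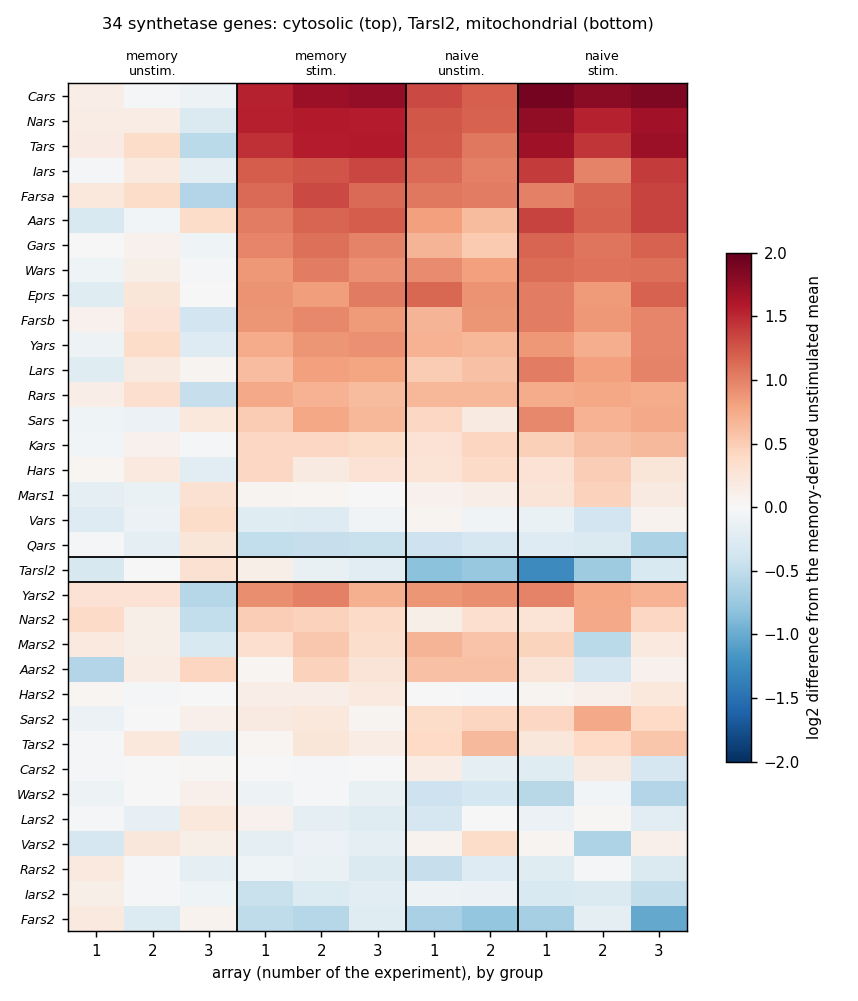
Log2 difference of each array (x axis, by group and number of the experiment) from the mean of the memory-derived unstimulated arrays, for the 34 genes (y axis), with cytosolic genes at the top, Tarsl2 in between and mitochondrial genes at the bottom. Most cytosolic rows are red on all 8 arrays outside the memory-derived unstimulated group, with Cars, Nars and Tars the deepest, while Qars is blue there.

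The interaction, naive-derived response minus memory-derived response, tested whether the final stimulation acted differently in the 2 kinds of cells. Of the 19 cytosolic genes 4 passed, all with the larger change in memory-derived cells, and 0 passed the other way. Of all genes 1.09% were lower, 1.62% higher and 2.71% either. The 4 were Nars (-1.13 ± 0.211, adjusted p = 0.0292), Iars (-1.07 ± 0.220, adjusted p = 0.0382), Cars (-1.06 ± 0.179, adjusted p = 0.0242) and Wars (-0.72 ± 0.167, adjusted p = 0.0497). With experiment as a block, which pairs the arrays, 0 passed, with adjusted p of 0.0634 for Cars, 0.0679 for Nars, 0.0853 for Iars and 0.101 for Wars. The count over single arrays left out ran from 0 to 9, and was 0 without memory-derived stimulated array 2 or 3, naive-derived unstimulated array 1 or 2, or naive-derived stimulated array 1 or 2, and 9 without memory-derived unstimulated array 2.

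In experiment 1 Nars changed by 1.40 in memory-derived and 0.52 in naive-derived cells, and in experiment 2 by 1.45 and 0.35. For Iars the values were 1.23 and 0.27 in experiment 1, and 1.06 and -0.00 in experiment 2. For Cars they were 1.39 and 0.59, then 1.74 and 0.61. Each of these within-experiment changes was larger in memory-derived cells. Nars, Iars and Cars were picked because they passed the interaction on these same arrays, so these values describe that result and do not repeat it. Farsa (-1.06), Tars (-1.06) and Eprs (-0.92) had interactions of like size and adjusted p of 0.0952, 0.0809 and 0.0576. The cytosolic median was -0.61. While 51.7% of all genes were above 0, 16 of the 19 were below it, and 12 had an unadjusted p below 0.05, where 10.6% of all genes were lower at that level. Of the 14 mitochondrial genes 0 passed (median -0.07), and 3 (Mars2, Yars2 and Aars2) were lower without adjustment.

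Partners of the synthetases outside the rule were read from lists chosen with earlier results of these data known; in stimulated memory-derived cells 14.3% of all genes rose and 17.3% fell. Of the 3 scaffold proteins of the multisynthetase complex, 2 rose in stimulated memory-derived cells: Eef1e1 (1.70 ± 0.442, adjusted p = 0.0133) and Aimp2 (0.77 ± 0.204, adjusted p = 0.0145). Eef1e1 ranged from 5.88 to 8.17 on the memory-derived unstimulated arrays and from 8.89 to 9.12 on the stimulated ones, so its unstimulated arrays differed widely among themselves. The third, Aimp1, lay at 6.51 to 6.81 before and 6.55 to 6.68 after. Of 9 genes for the supply and editing of tRNA, 5 rose and 1 fell. The largest rises were of Xpot, the exporter of tRNA from the nucleus (1.78 ± 0.195, adjusted p = 0.000176), Rpp40, a subunit of the RNase P that trims tRNA precursors (1.03), and Elac2, which cuts their other end (0.97), and the gene that fell was Dtd1 (-0.43), which removes D-amino acids from tRNA. Of 6 further genes of mitochondrial aminoacylation 1 rose, Gatc (0.59 ± 0.124, adjusted p = 0.00489), a subunit of the amidotransferase that makes mitochondrial glutaminyl-tRNA. That share is near the one over all genes, and the count ran from 0, with scaling on the hybridization controls, to 2 over the alternatives. Of 4 cytosolic elongation factors 0 passed, with or without adjustment (median -0.01).

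Genes of the amino acid response, without the synthetases, also rose. Of 14 measured, 12 were higher in stimulated memory-derived cells and 1 lower (median 1.47), where 14.3% and 17.3% of all genes were. Atf4 lay at 7.21 to 8.04 before and 9.13 to 9.27 after (1.53 ± 0.198, adjusted p = 0.000387). Asns, asparagine synthetase, lay at 6.17 to 6.66 before and 8.35 to 8.68 after (2.11 ± 0.167, adjusted p = 3.83e-05). Neither overlapped between groups. Chac1 (2.96) and Trib3 (2.56) had the largest rises, and Ddit4, a gene of the same list, fell by 1.10. Of 11 amino acid transporters, 9 rose and 1 fell (median 1.04). Slc1a4, which carries neutral amino acids, changed by 2.31, Slc3a2 by 1.68 and its partner Slc7a5 by 1.57; Slc38a9, the lysosomal arginine sensor, changed by -0.59.

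In naive-derived cells 0 of the 14 response genes and 0 of the 11 transporters passed after stimulation, where 0.0135% of all genes did. Without adjustment 9 of the 14 were higher, with a median of 0.50, and 3 transporters were higher and 1 lower. At that level 4.04% of all genes were higher and 4.42% lower. Atf4 lay at 8.47 to 8.74 before and 8.75 to 9.10 after (0.37 ± 0.221, adjusted p = 0.705), and Asns at 7.81 to 7.98 before and 8.28 to 8.71 after (0.57 ± 0.186, adjusted p = 0.447). Between unstimulated cells, where 10.9% of all genes were higher and 14.9% lower, 10 response genes were higher and 1 lower in naive-derived cells, Atf4 by 0.96 ± 0.221 (adjusted p = 0.00971) and Asns by 1.45 ± 0.186 (adjusted p = 0.000550), and 8 transporters were higher and 1 lower. In the same comparison 2 scaffold genes and 5 genes of tRNA supply were higher and 1 of the latter lower; with experiment as a block 0 scaffold genes passed. After stimulation 0 genes of these lists passed between origins, where 3.7% of all genes did. However, Slc38a9, at -0.70 (adjusted p = 0.0549), passed with experiment as a block (0.0378) and with scaling on the hybridization controls (0.0355). Over the alternatives up to 2 response genes and 1 gene each of the transporters and of mitochondrial aminoacylation were higher. In the interaction, where 1.09% of all genes were lower and 1.62% higher, 4 response genes were lower and 1 was higher, Ddit4 (1.42). The largest of the 4 were Chac1 (-2.29) and Asns (-1.54 ± 0.250, adjusted p = 0.0227). Slc1a4 (-1.57), Xpot (-1.31) and Trnt1 (-1.12), which adds the CCA end to tRNA, were lower too. With experiment as a block 0 genes of these lists passed. For Atf4 the interaction was -1.16 ± 0.297 (adjusted p = 0.0607).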

How the data were processed

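RNA of 11 cultures was hybridized to 11 arrays, grouped by the labels into 4 groups by origin and final stimulation. The deposited values were quantile normalized by the authors, since once sorted the 11 arrays are identical (range 0 to 4.56, median 0.554). Affymetrix Expression Console is named in the submitters' processing notes; the summarization method is not given in the sources used here. The deposited values were read as log10, inferred from the hybridization controls (mean 1.38 for bioB, 1.87 for bioC, 2.58 for bioD and 3.65 for cre, steps of 0.944, 1.02 and 1.77 per log10 of concentration), and multiplied by 3.32 to a log2 scale. Probe sets were named from the platform annotation: of 45101, 64 are controls, 34945 have 1 symbol, 932 several and 9160 are not listed. Each gene is its single-symbol probe set with the highest mean; 22 members have several, and 2 of these, Farsa and Lars2, have probe sets above the filter that changed in opposite directions. The filter was the 40th percentile (1.54) on 2 arrays.

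A linear model of 4 group means was fitted to 14795 genes with limma 3.58.1 (R 4.3.3), by lmFit and then eBayes with 3.86 prior degrees of freedom beside 7 residual ones, two-sided, with Benjamini-Hochberg adjustment over all genes and a threshold of 0.05; it was tested on simulated data. Differences are naive minus memory or stimulated minus unstimulated, with SE. Members, lists and tests were chosen with earlier results of these data known. Values on each array are given for the 6 cytosolic genes with the largest change in memory-derived cells, the 3 with the smallest, the 4 mitochondrial genes with the largest, and those called in the interaction; at most 3 genes per other list are named, plus Atf4 and Asns. Further genes given by array (Qars, Gars, Tars2, Sars2, Tarsl2) and Ddit4, Dtd1, Slc38a9 and Aimp1 were singled out after their values were seen.

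The biological replicate number was read as the experiment's, and so taken to pair arrays across groups. The sample titles do not state that arrays with the same number were prepared together. Deviations from group means correlated at -0.0716 to 0.112 between arrays of one experiment (median 0.0341, 15 pairs; 0.0470 to 0.112, median 0.0944, in the 5 pairs that also share the origin) and -0.131 to 0.112 between experiments (median -0.00361, 30 pairs). The main fit did not pair the arrays. Its p values measure the spread between biological replicates within groups, not how the differences within experiments vary. Promoter sequences are RefSeq's (GRCm38.p6). Motifs were searched and figures drawn with Python 3.11.15, numpy 2.4.6, pandas 2.3.3 and matplotlib 3.10.9. The alternatives were other scaling, filters, probe set rules, blocks, arrays in the fit and variance priors, and each array left out.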

Additional observations from a re-analysis of the deposited data

Results flagged for a closer look

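In 4 genes the response to the final stimulation, naive-derived minus memory-derived, passed the interaction test. On the log2 scale the difference was -1.13 for Nars, -1.07 for Iars, -1.06 for Cars and -0.72 for Wars, with limma's adjusted p between 0.0242 and 0.0497. Cars, Nars and Wars had all stimulated arrays above all unstimulated arrays in both origins. Of all genes 21.9% showed that in memory-derived and 13.6% in naive-derived cells. The naive-derived changes of the 4 genes, 0.60, 0.45, 0.20 and 0.22 for Cars, Nars, Iars and Wars, did not themselves pass. In naive-derived cells the other Wars probe sets had means of 5.79, 5.28 and 4.89 before and 5.77, 5.55 and 5.13 after stimulation. All 4 calls were lost with experiment as a block.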

How the results depend on the processing

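No called value of a member changed sign under the alternatives. Of 4250 recomputed member values, 3948 kept direction and side of the threshold, 143 lost and 20 gained a call, and 139 uncalled values changed sign. For the final stimulation in memory-derived cells the cytosolic median was 0.80 with the mean of all probe sets and 0.75 with experiments 1 and 2 alone, and 2 mitochondrial genes were called with the stricter filter, the mean of probe sets, or the trended robust prior. Leaving out 1 array gave 14 to 16 cytosolic calls (median 0.78 to 1.03) and 1 to 2 mitochondrial calls (median -0.0293 to 0.0688). In naive-derived cells the mitochondrial median of -0.05 was -0.0916 with control scaling, 0.0050 with unsuffixed probe sets, 0.0344 with the replicate block and 0.0336 with experiments 1 and 2; leaving out 1 array gave -0.132 to 0.0336, cytosolic medians of 0.17 to 0.23 and 0 calls.

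Between unstimulated cells the cytosolic calls fell from 14 to 7 with control scaling and 8 with only the groups compared, and the median was 0.58 with experiments 1 and 2. The 3 mitochondrial calls became 0 with control scaling, and 1 with experiments 1 and 2 or only the groups compared; their median was 0.0377, -0.0433, 0.0609 and -0.0103 with scaling, mean of probe sets, replicate block and experiments 1 and 2. Leaving out 1 array gave 7 to 14 cytosolic calls (median 0.58 to 0.83) and 0 to 6 mitochondrial calls (median -0.0103 to 0.162). Between stimulated cells the mitochondrial median was -0.121 with scaling and -0.0802 with the mean of probe sets, and over arrays left out -0.0782 to 0.00547, with cytosolic medians of 0.07 to 0.16 and 0 calls.

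The 4 interaction calls became 0 with control scaling, the replicate block or experiments 1 and 2, 2 without a filter and 7 with the trended robust prior. Leaving out 1 array gave 0 to 9 (median -0.78 to -0.53) and 0 mitochondrial calls (median -0.120 to -0.0181); the mitochondrial median was 0.0126 with the mean of probe sets and -0.0313 with experiments 1 and 2. For naive-derived unstimulated against memory-derived stimulated cells the cytosolic median was -0.0460 with the mean of probe sets, and the mitochondrial one -0.0324, -0.0299, -0.0473 and -0.0345 with scaling, unsuffixed probe sets, replicate block and experiments 1 and 2. Leaving out 1 array gave cytosolic medians of -0.18 to -0.09, mitochondrial medians of -0.0345 to 0.0772 and 0 calls. The causes were not tested.

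With the replicate block the cytosolic calls were 15 and 12 for stimulation in memory-derived cells and origin in unstimulated cells, and over all genes interaction calls went from 401 to 26. Control scaling moved the median of all genes by -0.02, -0.07 and -0.10 in memory-derived stimulated, naive-derived unstimulated and naive-derived stimulated cells against memory-derived unstimulated cells. It moved the share of higher calls from 45.6% to 33.9% for origin in stimulated cells and from 59.6% to 46.6% for the interaction. Without memory-derived unstimulated array 3, 15 and 13 cytosolic genes passed in the first and the origin comparison of unstimulated cells. Calls among the transporters ran from 3 to 9 higher between unstimulated cells. Naive-derived unstimulated cells have 2 arrays, and signal over background was not available here, so values near the filter, such as those of Tarsl2, Mars2 and Aars2, are the least certain.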
